A study of Homo sapiens with 9 samples.

Results

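The oligoadenylate synthetase genes OAS1, OAS2, OAS3 and OASL were examined by RNA sequencing in cells given by the cell line field of every label as OVCAR5, an established human ovarian cancer cell line. The source field of the labels also reads OVCAR5 for NC and SM2 but reads OVCAR6, OVCAR7 and OVCAR8 for SM4 replicates 1, 2 and 3, so for the SM4 libraries the labels conflict on the line, and whether they came from another line was not tested. These 4 symbols were matched through the GENCODE annotation to 4 of the 60649 gene identifiers in the count table, and all 4 held enough counts to be tested. All groups share lentiviral transduction followed by puromycin selection, and the 9 libraries fell by their titles into 3 groups of 3, called NC, SM2 and SM4. The labels give NC as the control, once as parental cells, and give SM2 and SM4 as METTL3 knockdown, while the methods of the study name a control hairpin and a pair of hairpins against METTL3 without tying either to SM2 or SM4. METTL3 carries the catalytic site of the complex that writes N6-methyladenosine (m6A) on RNA. Nothing in the labels says that the libraries of a group came from separate cultures or clones, so the p-values measure only the spread between these libraries, which may be technical.

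Oligoadenylate synthetases are part of the innate response to viruses. On binding double-stranded RNA they join ATP into short oligoadenylate chains, and these chains set off the breakdown of viral and cellular RNA. The genes are induced by interferon through a transcription factor complex that holds STAT2 and IRF9 and binds interferon-stimulated response elements in promoters, and they are used as markers of an interferon response in epithelial cells and tumours. OAS1 has a single synthetase unit, and OAS2 and OAS3 have repeated units. Human OASL lacks synthetase activity and ends in ubiquitin-like domains that act in RNA sensing.

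OAS1 (ENSG00000089127.15, 112905856 to 112933219), OAS3 (ENSG00000111331.14, 112938051 to 112976460) and OAS2 (ENSG00000111335.14, 112978395 to 113011723) lie side by side on the plus strand of chromosome 12 (GRCh38). OASL (ENSG00000135114.13) lies apart from them on the minus strand of the same chromosome, at 121017763 to 121039246. An antisense non-coding gene, ENSG00000257452, overlaps all 3 genes of the cluster and had 0 counts in every library. The pseudogene OASL2P next to OASL also had 0 counts in every library.

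Promoter windows from RefSeq (GRCh38.p14, 250 bases before to 50 after the RefSeq gene start) were held for 2 of the 4 genes, OAS1 and OAS3, and are shown because the response element through which interferon acts on these genes is built from repeats of GAAA. The RefSeq start is 112906962 for OAS1 and 112938474 for OAS3, which is 1106 and 423 bases downstream of the GENCODE gene starts given above. Both are printed 5′ to 3′ on the plus strand, and capitals mark pairs of GAAA with 1 base (N) or 2 bases (NN) between them, spacings that were chosen after these windows had been read.
OAS1, chr12:112906712-112907011: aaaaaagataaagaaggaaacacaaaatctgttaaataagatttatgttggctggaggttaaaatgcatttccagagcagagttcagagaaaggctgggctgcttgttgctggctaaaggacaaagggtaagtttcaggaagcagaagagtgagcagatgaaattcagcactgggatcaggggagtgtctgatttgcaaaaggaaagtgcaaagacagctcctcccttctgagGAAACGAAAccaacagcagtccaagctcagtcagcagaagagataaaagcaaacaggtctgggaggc
OAS3, chr12:112938224-112938523: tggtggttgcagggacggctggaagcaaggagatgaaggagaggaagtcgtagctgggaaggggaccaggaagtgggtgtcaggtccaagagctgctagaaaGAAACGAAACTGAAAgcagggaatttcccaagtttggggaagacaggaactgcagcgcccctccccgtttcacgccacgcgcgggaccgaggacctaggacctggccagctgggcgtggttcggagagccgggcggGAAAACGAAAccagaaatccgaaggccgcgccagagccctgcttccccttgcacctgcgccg
The OAS1 window held a single pair, GAAACGAAA, at -17 to -9 from the RefSeq start, which is inside the gene as GENCODE bounds it. The OAS3 window held 3 pairs, which also lie inside the gene as GENCODE bounds it. GAAACGAAA and GAAACTGAAA overlap each other, at -148 to -140 and -143 to -134 from the RefSeq start, and GAAAACGAAA lies at -12 to -3. Searched on both strands, the pair with N between occurred in 3.22% and that with NN in 3.65% of 27305 RefSeq promoter windows of the same length, and either occurred in 6.55%. Of 30 other interferon-stimulated genes listed for this work, 27 had a window and 23 of these held either pair. A match of letters is a description of the window and does not show that a factor binds there.

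Libraries held 44103272 to 63693728 counts, so that a level of 1 CPM (1 count per 1000000) rested on 43.8 to 63.2 counts. Replicates correlated with a Pearson r of 0.991 to 0.993 across genes, and their counts differed by more than sampling noise (chi-square of 4.16 to 16.1 per degree of freedom), with the largest values in the pairs that include SM2 replicate 3. METTL3, the gene named as knocked down, was at 36.3, 34.4 and 36.6 CPM in NC, 37.1, 39.8 and 40.0 CPM in SM2, and 60.6, 57.5 and 62.4 CPM in SM4. Its log2 fold change was 0.12 in SM2 against NC (adjusted p = 0.12, edgeR quasi-likelihood test) and 0.75 in SM4 against NC (adjusted p = 2.21e-09), and 0.63 in SM4 against SM2 (adjusted p = 7.46e-08). METTL3 mRNA was thus lower in the libraries labelled NC and in those labelled SM2 than in those labelled SM4. This goes against the label of SM4 as knockdown. Against NC, the label of SM2 as knockdown was not met either. All 3 SM2 libraries lay above every NC library in METTL3 mRNA, although this difference did not pass the test. Which group was the control cannot be taken as settled by the labels, and a rise in SM4 below is equally a fall in the libraries compared with it. The study reports METTL3, OAS1 and OAS2 mRNA as lower with both hairpins against METTL3 than with the control hairpin. That order holds in these libraries if SM4 is taken as the control, and does not hold if NC is. Whether labels were exchanged was not tested. Every direction is between libraries by label. The epithelial identity in the labels was met by the mRNA levels, since 6 of 6 epithelial markers, keratins and E-cadherin (CDH1) among them, summed to 10218 to 12107 CPM per library. Among 6 leukocyte markers, TYROBP had 0 counts in all libraries, PTPRC, CD3E and CD68 reached at most 0.166 CPM, and LYZ alone exceeded 1 CPM, so that the list summed to 35.4 to 38.7 CPM in NC, 50.3 to 54.0 CPM in SM2 and 31.3 to 33.7 CPM in SM4. Fibroblast and endothelial markers summed to 26.98 to 30.4, 30.9 to 35.1 and 34.9 to 39.7 CPM in the same order, of which PECAM1 had means of 5.48, 8.23 and 13.7 CPM and COL1A1 was at 25.8 CPM or less, while DCN and VWF reached at most 0.237 CPM. The part of these markers in the results below was not tested.

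OAS1, the smallest enzyme of the family, was at 34.0, 33.7 and 37.2 CPM in the 3 NC libraries. It was at 36.9, 33.7 and 35.0 CPM in SM2 and at 53.2, 57.0 and 54.2 CPM in SM4. All 3 SM4 libraries lay above every other library, and the ranges of NC and SM2 overlapped. OAS1 rose 1.57-fold in SM4 against NC (log2 fold change 0.65, SE 0.0565, adjusted p = 3.55e-08 in the edgeR quasi-likelihood test with Benjamini-Hochberg adjustment). It also rose in SM4 against SM2, by 0.64 on the log2 scale (adjusted p = 1.14e-07). Between SM2 and NC the estimate was 0.01 on the log2 scale (adjusted p = 0.952) with a 95% interval of -0.11 to 0.13, and the sign turned without NC replicate 1 (-0.0139), NC replicate 2 (-0.020) or SM2 replicate 1 (-0.0282).

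OAS2, which carries repeated synthetase units, was the least abundant member and showed the largest change of the 4. Its level was 3.47, 2.52 and 3.33 CPM in NC, 3.28, 3.54 and 3.66 CPM in SM2, and 6.68, 8.26 and 6.36 CPM in SM4. Every SM4 library was above every NC and SM2 library. The rise in SM4 was 2.29-fold against NC (log2 fold change 1.20, SE 0.138, adjusted p = 1.6e-06) and 2.03-fold against SM2 (log2 fold change 1.02, adjusted p = 2.24e-05). The difference between SM2 and NC was 0.17 on the log2 scale (adjusted p = 0.448, 95% interval -0.13 to 0.48), and 2 of 3 SM2 libraries exceeded all NC libraries. OAS2 rested on 137 to 522 counts per library, for which counting alone gives an error of 4.38% to 8.54%.

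OAS3, the longest enzyme of the family and the member with most counts, was called in all 3 comparisons. Its level was 252, 236 and 246 CPM in NC, 217, 215 and 190 CPM in SM2, and 322, 338 and 322 CPM in SM4. The groups did not overlap, with SM2 below NC and SM4 above it. OAS3 fell in SM2 against NC (log2 fold change -0.24, SE 0.0497, adjusted p = 0.00121) and rose 1.34-fold in SM4 against NC (log2 fold change 0.42, SE 0.0494, adjusted p = 2.13e-06). The direct difference between SM4 and SM2 was 0.66 on the log2 scale (adjusted p = 1.27e-08). The lowest SM2 library was replicate 3, and without it OAS3 still fell (-0.18, adjusted p = 0.00161). With 9915 to 21356 counts per library, counting error was at most 1.0%.

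OASL, the member without synthetase activity, was at 6.48, 7.45 and 6.65 CPM in NC, 6.37, 5.47 and 5.41 CPM in SM2, and 7.83, 8.96 and 8.45 CPM in SM4. As for OAS3, the SM2 libraries were all below and the SM4 libraries all above those labelled NC. The difference between SM4 and SM2 passed the test (log2 fold change 0.55, SE 0.104, adjusted p = 0.00103), whereas those with NC were close to the threshold. The rise of OASL in SM4 over NC was 0.29 (adjusted p = 0.0468). This call was lost on removing NC replicate 1, NC replicate 3, SM2 replicate 2, SM4 replicate 2 or SM4 replicate 3, with estimates of 0.24 to 0.29 and adjusted p = 0.0525 to 0.168. Its estimate for SM2 over NC was -0.26 on the log2 scale (adjusted p = 0.0932, 95% interval -0.48 to -0.03), which was called only without SM2 replicate 1 (-0.34, adjusted p = 0.0418) among the fits that left out a library.

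**Figure D1:**
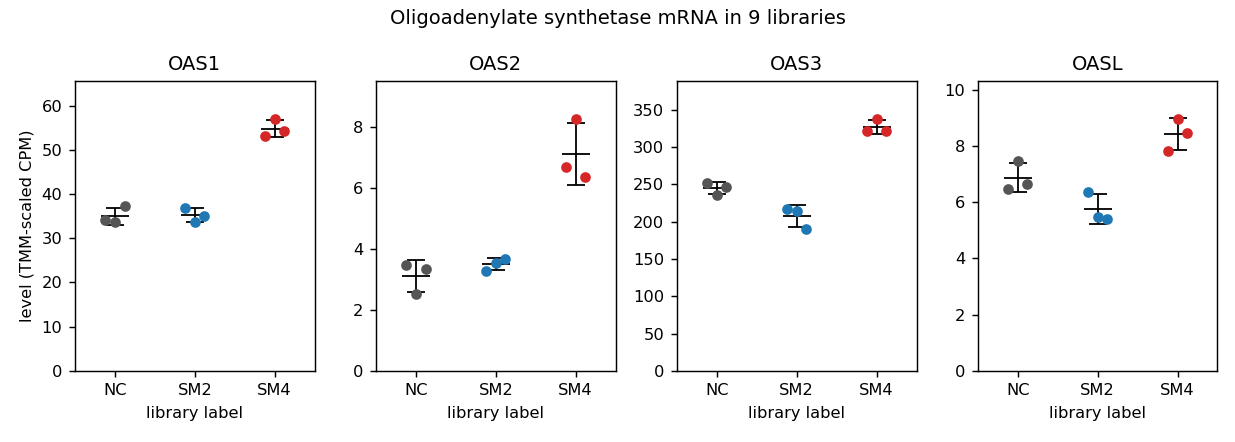
Level of each oligoadenylate synthetase mRNA (y axis, TMM-scaled CPM from 0) in the 3 libraries labelled NC, SM2 and SM4 (x axis), with points for libraries and bars for the mean ± SD. All 3 SM4 points lie above every other point in each panel, and SM2 lies below NC for OAS3 (190 to 217 against 236 to 252 CPM) and OASL.

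In SM4 against NC, 4 of 4 members were called higher, where 21.2% of all 19674 genes tested were called (11.0% higher and 10.2% lower). In SM4 against SM2, 4 of 4 were called higher, where 12.8% of all genes were called (6.04% higher and 6.76% lower). In SM2 against NC, 1 of 4 (OAS3) was called lower, where 22.3% of all genes were called (12.0% higher and 10.3% lower). Without SM2 replicate 1 a second member (OASL) was called lower in that comparison. The 3 SM4 libraries exceeded all NC libraries for 4 of 4 members, against 19.1% of all genes, and exceeded all SM2 libraries for 4 of 4, against 13.7% of all genes. The reverse order held for 19.3% and 14.6% of all genes. The SM2 libraries were all below NC for 2 of 4 members and all above NC for 0 of 4, against 17.2% and 18.0% of all genes. By log2 fold change in SM4 against NC, OAS2 lay above 98.1% of all genes tested, OAS1 above 94.0%, OAS3 above 88.9% and OASL above 83.6%. Both comparisons with NC share the NC libraries, so their values are given side by side and the difference between them is tested only as SM4 against SM2. These are bulk libraries, in which fewer cells of a type and less RNA per cell cannot be told apart.

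**Figure D2:**
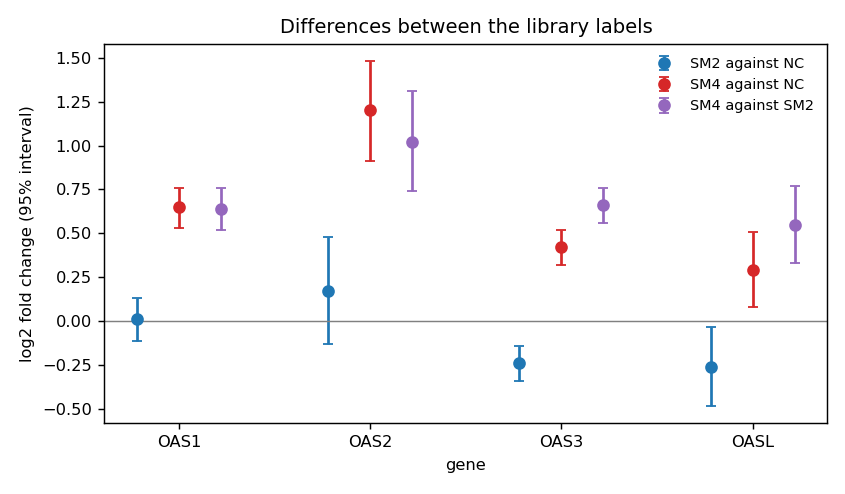
Log2 fold change (y axis) of each gene (x axis) in the 3 comparisons, as points with 95% intervals from the edgeR fit over 9 libraries. The SM4 differences exclude 0 for all 4 genes, from 0.29 for OASL to 1.20 for OAS2 against NC, while SM2 against NC spans 0 for OAS1 and OAS2 and lies below it for OAS3 and OASL.

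The members differed widely in abundance. Divided by the length of the canonical transcript (1631 bases for OAS1, 4622 for OAS2, 6599 for OAS3 and 3270 for OASL), the mean level in NC was 37.1 ± 1.26 CPM per kb for OAS3, 21.5 ± 1.19 for OAS1, 2.10 ± 0.159 for OASL and 0.672 ± 0.111 for OAS2 (SD, n = 3). The same order held in SM2, at 31.4, 21.6, 1.76 and 0.756 CPM per kb, and in SM4, at 49.6, 33.6, 2.57 and 1.54 CPM per kb. No neighbours in this order overlapped between libraries of a group. The order was also the same with the union of annotated exons as the length. Averaged over the 9 libraries and set among 13785 protein-coding genes, the level per kb was above that of 84.6% of genes for OAS3, 77.0% for OAS1, 27.7% for OASL and 19.9% for OAS2.

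Added together per kb, the 4 mRNAs came to 59.2 to 62.9 CPM per kb in NC, 52.6 to 58.2 in SM2 and 85.3 to 90.7 in SM4. OAS3 made up 60.5% ± 1.26 of this sum in NC, 56.5% ± 1.91 in SM2 and 56.8% ± 0.373 in SM4. The share of OAS1 was 35.0% ± 1.27, 38.9% ± 1.77 and 38.5% ± 0.184 in the same order. OAS1 and OAS3 thus made up most of the sum in every library. OAS2 took 1.09% ± 0.154 in NC, 1.37% ± 0.142 in SM2 and 1.75% ± 0.193 in SM4, and OASL took 3.43% ± 0.362, 3.17% ± 0.172 and 2.94% ± 0.118. All these shares hold for the canonical length only. With the union of annotated exons as the length, OAS3 was at 13.6 and OAS1 at 2.69 CPM per kb in NC, which makes the share of OAS3 larger and that of OAS1 smaller. Ratios were also taken within the gene cluster on chromosome 12. The log2 ratio of OAS2 to OAS3 CPM was -6.55 to -6.18 in NC, -6.05 to -5.70 in SM2 and -5.66 to -5.35 in SM4. The 3 ranges of this ratio did not overlap, unlike those of the other ratios of the cluster. The ratio of OAS1 to OAS2 was 3.29 to 3.74 in NC, 3.25 to 3.49 in SM2 and 2.79 to 3.09 in SM4, so that NC and SM2 overlapped. That of OAS1 to OAS3 was -2.89 to -2.72 in NC, -2.67 to -2.44 in SM2 and -2.60 to -2.57 in SM4, so that SM2 and SM4 overlapped. These ratios were not tested. The ratio of OAS3 to OASL stayed within overlapping ranges, at 4.98 to 5.28 in NC, 5.09 to 5.29 in SM2 and 5.24 to 5.36 in SM4.

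Because the study concerns an m6A writer, the canonical transcripts were scanned for GGACT, a frequent core of m6A sites. OAS1 held 2 such words, OAS2 2, OAS3 9 and OASL 7, which is 1.23, 0.433, 1.36 and 2.14 per kb, against a median of 0.935 over the 13785 protein-coding genes. OASL thus lay above 92.8% of these genes and OAS2 above 17.2%, and the member with most words per kb had the smallest rise in SM4 against NC and that with fewest the largest. This is a count of letters in 4 transcripts, a relation to the size of the change was not tested, and methylation was not measured in these libraries. GC content was 46.9% (OAS2) to 54.1% (OAS3), around the median of 49.2%.

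Genes close to the members on chromosome 12 were examined next. Of 32 other annotated genes that overlapped a member or started within 250 kb of the start of a member, 10 had enough counts to be tested. In SM4 against NC, 2 of these were higher (SPPL3 at 0.19 and P2RX4 at 0.33 on the log2 scale, adjusted p = 0.00897 and 0.0292) and 1 was lower (TPCN1 at -0.19, adjusted p = 0.0079). The tested gene nearest to the cluster, DTX1, a Notch pathway ubiquitin ligase that starts 78.3 kb from OAS2, had a log2 fold change of 0.22 (adjusted p = 0.556). Between SM4 and SM2 the 10 genes had log2 fold changes of -0.12 to 0.34 and adjusted p-values of 0.12 or more. SM2 against NC called SPPL3 (0.23) and P2RX4 (0.43) higher. Of all genes tested, 21.2% were called in SM4 against NC, 22.3% in SM2 against NC and 12.8% in SM4 against SM2.

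**Figure D3:**
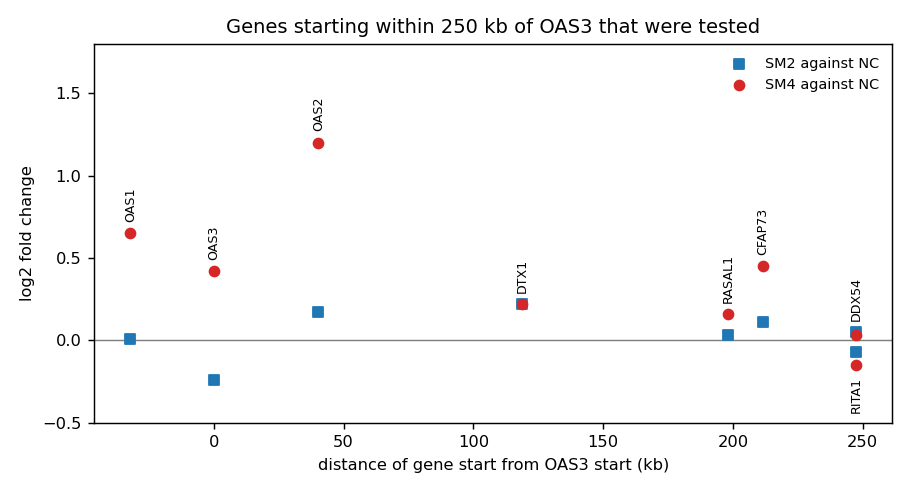
Log2 fold change (y axis) of the tested genes that start within 250 kb of OAS3, by distance of their start from the OAS3 start (x axis, kb), in SM2 against NC (squares) and SM4 against NC (circles). OAS1, OAS3 and OAS2 rise to 0.65, 0.42 and 1.20 in SM4, and none of the other genes shown was called in either comparison (CFAP73 at 0.45 had an adjusted p of 0.65).

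The interferon genes that would act upstream were read next. Of 10 interferon genes, only IFNE, an epithelial type I interferon, had enough counts to be tested. Its libraries summed to 31 counts in NC, 40 in SM2 and 88 in SM4, and it rose in SM4 against NC (log2 fold change 1.31, adjusted p = 0.047). That call was lost on leaving out any of the 6 NC and SM4 libraries (log2 fold changes of 1.08 to 1.56, adjusted p = 0.0592 to 0.198) and with a DESeq2 test, and IFNE was not called in SM2 against NC (0.44, adjusted p = 0.598). The other 9, IFNB1 and IFNL1 among them, had at most 5 counts in any library, and IFNK, IFNW1, IFNA2 and IFNG had 0 in all 9, so a difference was not detectable at this depth.

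The counts in this and the following lists stand beside 11.0% of all genes called higher and 10.2% lower in SM4 against NC. These shares were 12.0% and 10.3% in SM2 against NC, and 6.04% and 6.76% in SM4 against SM2. Of 19 genes of interferon receptors and signalling, 5 rose and 3 fell in SM4 against NC, with a median log2 fold change of -0.02 beside 0 over all genes. Among those that rose were STAT2 (0.25), IRF9 (0.51), IRF1 (0.39) and IRF7 (0.61), which are transcription factors of the pathway, with adjusted p-values of 3.64e-08 (IRF7) to 0.0419 (IRF9). IRF7 was at 38.5 ± 0.299 CPM in NC, 39.8 ± 1.88 in SM2 and 58.8 ± 2.70 in SM4. The IRF9 call was lost on removing any NC library, SM4 replicate 1 or SM4 replicate 3 (adjusted p = 0.066 to 0.206). The genes that fell were IFNGR1 (-0.39), a subunit of the type II interferon receptor, and the feedback inhibitors USP18 (-0.55) and SOCS3 (-0.66), and USP18 was no longer called on removing NC replicate 3, SM4 replicate 1 or SM4 replicate 3 (adjusted p = 0.0818 to 0.183). The type I receptor subunits had log2 fold changes of 0.02 (IFNAR1, adjusted p = 0.776) and -0.17 (IFNAR2, adjusted p = 0.55). Between SM2 and NC, IRF1 rose (0.25, adjusted p = 0.00154) and SOCS3 fell (-0.41, adjusted p = 4.75e-05), and the other 17 were not called. SM4 against SM2 called 4 higher (STAT2, IRF9 and IRF7 among them) and 3 lower (IFNGR1, USP18 and SOCS3). Removing SM2 replicate 1 or SM4 replicate 1 ended the calls of USP18 and SOCS3, and removing SM4 replicate 3 ended that of USP18 (adjusted p = 0.0652 to 0.0832), while IRF1 was called higher on removing SM2 replicate 3 (0.17, adjusted p = 0.025).

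The oligoadenylate synthetases were read beside 30 other interferon-stimulated genes. In SM4 against NC, 24 of 30 rose, with a median log2 fold change of 0.59 beside 0 over all genes. The largest were IFI6 (2.04, adjusted p = 3.81e-12), IFI44L (2.00, adjusted p = 3.69e-08), EPSTI1 (1.92, adjusted p = 9.49e-05) and XAF1 (1.88, adjusted p = 1.59e-07). MX1, an antiviral GTPase, went from 26.5 ± 0.937 CPM in NC to 27.1 ± 2.45 in SM2 and 66.7 ± 3.74 in SM4. OAS1 (0.65) was thus close to the median of the list, OAS2 (1.20) above it, and OAS3 (0.42) and OASL (0.29) below it. The 6 not called were IFIT2, MX2, HERC5, HERC6, BST2 and LGALS3BP, with log2 fold changes of -0.13 to 0.13. Between SM2 and NC 8 rose and 1 fell, with a median of 0.10. Those that rose were IFIT1, IFIT2, IFIT3, ISG20, IFI6, CMPK2, SAMD9L and TRIM22, with log2 fold changes between 0.29 and 0.56, and the gene that fell was DDX60L (-0.18, adjusted p = 0.0344), a call lost on removing any of 6 of the 9 libraries (adjusted p = 0.0506 to 0.16). SAMD9 was called lower on removing SM2 replicate 1 (-0.22), and PARP9 (0.14) and PARP14 (0.20) higher on removing SM2 replicate 3. SM4 against SM2 called 22 higher and 1, IFIT2, lower (-0.40, adjusted p = 0.00188). Some calls in this list rested on single libraries. DDX60L in SM4 against NC (0.18, adjusted p = 0.0357) lost its call on removing NC replicate 1, NC replicate 3 or any SM4 library. IFIT5 (0.25) lost it on removing NC replicate 3 or SM4 replicate 1, ISG20 (0.29) on removing NC replicate 1 or SM4 replicate 2, and BST2 was called higher on removing SM2 replicate 3 (0.12). In the comparison of SM4 with SM2, IFIT1 (0.23) and GBP1 (0.32) lost theirs on removing any of 3 and any of 2 libraries (adjusted p = 0.0622 to 0.0844 and 0.051 to 0.0797).

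Among 11 genes of double-stranded RNA and DNA sensing, 5 rose and 1 fell in SM4 against NC, with a median of 0.21. DHX58, a regulator of RNA sensing (0.60, adjusted p = 0.000498), EIF2AK2, the RNA-activated kinase PKR (0.28, adjusted p = 0.000831), ADAR, the RNA editing enzyme (0.19, adjusted p = 0.00694), the RNA sensor IFIH1 (0.21, adjusted p = 0.00646) and its adaptor MAVS (0.21, adjusted p = 0.0127) rose. CGAS, a DNA sensor whose catalytic fold is related to that of the oligoadenylate synthetases, fell (-0.24, adjusted p = 0.017). Without NC replicate 2 only 3 of these 6 calls remained, because CGAS, IFIH1 and MAVS lost theirs, and CGAS also lost it without SM4 replicate 1 or 2, IFIH1 without SM4 replicate 2 and MAVS without SM4 replicate 1. Between SM2 and NC, CGAS (-0.24, adjusted p = 0.0138) and DHX36 (-0.14, adjusted p = 0.0473) fell, of which CGAS lost its call on removing NC replicate 2 or SM2 replicate 2, and DHX36 on removing any of 7 libraries (all but NC replicate 3 and SM2 replicate 1). EIF2AK2 was at -0.15 (adjusted p = 0.0534) there and was called lower without SM2 replicate 1 (-0.23, adjusted p = 0.00284), and MAVS was called higher without SM2 replicate 3 (0.21, adjusted p = 0.000115). SM4 against SM2 called DHX58, EIF2AK2, ADAR and IFIH1 higher and none lower.

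Downstream of the synthetases, 4 genes were read that remove oligoadenylates or act further along the pathway. In SM4 against NC 2 of the 4 fell, with a median log2 fold change of -0.24. These were AKAP7, a scaffold protein with a phosphodiesterase domain that cleaves oligoadenylates (2.52 ± 0.391 CPM in NC and 1.37 ± 0.22 in SM4, log2 fold change -0.87, adjusted p = 0.0014), and ABCE1, a ribosome recycling factor (203 ± 8.22 and 172 ± 4.06 CPM, -0.24, adjusted p = 0.000667). PDE12, which degrades oligoadenylates, had -0.09 (adjusted p = 0.334), and the phosphodiesterase ENPP1 had -0.24 (adjusted p = 0.223). ABCE1 (-0.27, adjusted p = 0.000183) and PDE12 (-0.19, adjusted p = 0.0267) fell in SM2 against NC. PDE12 lost its call on removing NC replicate 1, NC replicate 2, SM2 replicate 2 or SM2 replicate 3 (adjusted p = 0.0677 to 0.151). AKAP7 fell in SM4 against SM2 too (-0.78, adjusted p = 0.00633).

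**Figure D4:**
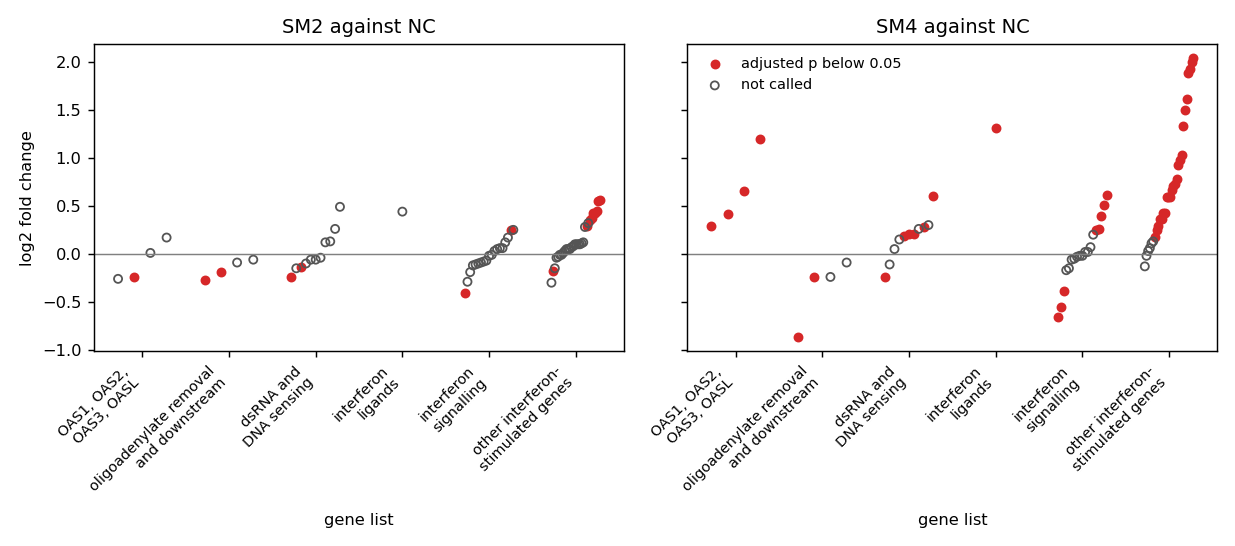
Log2 fold changes (y axis) of the 4 oligoadenylate synthetase genes and of 5 lists of related genes (x axis) in SM2 against NC and SM4 against NC, with filled points for an adjusted p below 0.05. In SM4 against NC, 4 of 4 members and 24 of 30 other interferon-stimulated genes are called higher, beside 11.0% of all genes. In SM2 against NC 0 of 4 and 8 of 30 are called higher, beside 12.0% of all genes. There 1 of 4 (OAS3) and 1 of 30 (DDX60L) are called lower, beside 10.3% of all genes.

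The genes whose log2 CPM followed each member most closely over the 9 libraries were found among 12079 protein-coding genes. For OAS1 they were IFI27, an interferon-stimulated gene (Pearson r = 0.984), SP100, TMPRSS4, MVP and APOE (r = 0.981). For OAS2 they were PLAAT3 (r = 0.981), AFTPH, SERPINA1, TMPRSS4 and IRF7 (r = 0.972). For OAS3 they were ACSL5 (r = 0.989), APLP2, CEMIP2, CYP24A1 and SLC44A2 (r = 0.981), and for OASL they were WDR76 (r = 0.969), QSOX1, DDX23, NR1D1 and MRPL49 (r = 0.950). Between members, r was 0.955 for OAS1 and OAS2, 0.921 for OAS3 and OASL, 0.905 for OAS1 and OAS3, 0.837 for OAS2 and OAS3, 0.828 for OAS1 and OASL, and 0.683 for OAS2 and OASL. OAS1 was the 15th closest gene to OAS2, and OAS3 the 38th closest to OASL. The libraries of a group share their group's level, so these values describe the order of 3 groups more than 9 separate points, and no p is given.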

How the data were processed

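For 9 libraries the authors deposited a table of raw counts by gene, without normalization. Per the methods of the study, reads were aligned to hg38 with HISAT2 and counted with Subread, and the processing notes also name fastp and featureCounts. Versions, the annotation and the use of strand are not given in the sources used here. Labels and methods disagree on the library kit and on read layout, so reads of a gene and an antisense partner may not be told apart. Symbols, positions and transcript lengths came from GENCODE release 44 (GRCh38), which matched 60463 of the 60649 identifiers without their version.

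In R 4.3.3 with edgeR 4.0.16, filterByExpr kept 19674 genes and removed 40975. All 9 libraries entered 1 quasi-likelihood fit with TMM normalization (factors 0.989 to 1.01) and the group as the term, and p-values were adjusted by Benjamini-Hochberg over all genes, with calls at 0.05. Levels are TMM-scaled CPM computed from the deposited counts. DESeq2 1.42.0 (the tool of the study), other size factors, other filters, only the libraries compared, a threshold of 0.01, the replicate number as a block and leaving out each library were alternatives. The fits were also run on simulated data drawn with the same spread for every gene, which does not test the spread between these libraries. Intervals and counting errors cover, respectively, the spread between libraries and counting only.

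The text names the 4 members, METTL3, marker genes, genes of 5 lists, the 5 protein-coding genes most alike to each member with a mean of at least 1 CPM, and genes within 250 kb. Members and lists were chosen with earlier results of these data known, so they are no independent support. The study also names OAS1 and OAS2, and reports their mRNA as lower with hairpins against METTL3 than with the control hairpin. It further reports them as higher with METTL3 overexpression and measured them by RT-qPCR. Other genes named here, MX1, SAMD9L, TRIM22 and AKAP7 among them, are also in its list of top genes. Some listed genes are not reported here.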

Additional observations from a re-analysis of the deposited data

Results flagged for a closer look

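The differences of SM2 and SM4 from NC differed from each other for all 4 members when tested as SM4 against SM2 in edgeR, with log2 fold changes of 0.64 for OAS1, 1.02 for OAS2, 0.66 for OAS3 and 0.55 for OASL (largest adjusted p = 0.00103), each with 3 of 3 SM4 libraries above every SM2 library. Single libraries were not searched for outliers because each group holds 3.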

How the results depend on the processing

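Over 17 alternatives the 4 members kept direction and call in 68 of 68 cases for SM4 against SM2, 61 of 68 for SM4 over NC and 64 of 68 for SM2 over NC. In SM4 against NC, OASL lost its call without a filter on low counts (0.30, adjusted p = 0.066), at a threshold of 0.01 (0.29), and in 5 fits that left out a library, over which its log2 fold change was 0.24 to 0.36. In SM2 against NC, leaving out a library gave -0.34 to -0.19 for OASL, -0.0282 to 0.05 for OAS1 (negative at -0.0139, -0.020 and -0.0282) and 1 to 2 members called. At a threshold of 0.01 the genes called numbered 2775 for SM2 over NC, 2646 for SM4 over NC and 1393 for SM4 over SM2. At the threshold of 0.05, SM4 over SM2 had 2518 genes called, and leaving out a library gave 1574 (without SM4 replicate 1) to 2748. In the lists against NC, the 4 downstream genes gave 1 call in SM2 with only the 6 libraries compared or at 0.01, and 1 to 2 on leaving out a library. The sensing genes gave 1 call in SM2 with DESeq2 size factors, upper-quartile factors or only the 6 libraries, 0 at 0.01, and 0 to 3 on leaving out a library, and in SM4 3 to 6. IFNE in SM4 gave 0 calls with DESeq2, at 0.01 and with the replicate number as a block, 0 to 1 on leaving out a library, and no value under the filter of 1 CPM. Same-numbered libraries deviated together weakly or not at all (r of -0.053 to 0.0453). Each NC library correlated best with its own number in SM2 and in SM4, but this did not hold for every library between SM2 and SM4. The numbers were therefore not taken as pairs. The block changed no call of a member and moved no other count of calls by over 1.5 times. The cause of these changes was not tested. OAS2 and OASL rest on 137 to 566 counts per library, which limits their precision more than that of OAS1 and OAS3.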
